A study of Mus musculus with 6 samples.

Results

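The regions described here are the last 5 Mb of each mouse autosome, at the end of the chromosome far from the centromere. They were taken as the bins of the Hi-C bin list that lie within the last 5 Mb of the 19 mm10 autosomes, which gave 936 of 24067 autosomal bins and of 26731 bins in all. The bins are runs of whole restriction fragments with a median size of 100 kb. Of the 936 end bins, 914 had enough contacts to be used (0.3 to 3 times the autosomal median), and of the 22 left out 16 were the last of their chromosome, 4 others lay on chromosome 2 and 2 on chromosome 13.

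In situ Hi-C ligates neighbouring DNA ends inside intact nuclei, and a read pair then stands for 1 contact between genomic sites. It was used on B-cell progenitors of C56BL/6 mice (as the labels spell the strain) in 3 groups of 2 libraries, each a biological replicate according to the methods. The Erg KO group carried the Rag1Cre transgene and floxed Erg alleles (Rag1CreT/+;Erg fl/fl), the CreT control the transgene alone (Rag1CreT/+), and the Erg fl/fl control the floxed alleles without Cre (Rag1Cre+/+;Erg fl/fl). Erg is a transcription factor with an ETS domain, and Rag1Cre deletes floxed alleles from lymphoid progenitors onwards, so other blood cells keep Erg. Lineage-negative marrow had grown for 8 days on OP9 stromal feeder cells with SCF, IL7 and FL, and B220+ cells were then taken. According to the paper, B-cell development without Erg stops early, at the pre-proB stage. Its Hi-C figure names the Erg-deficient material as pre-proB and the wild-type material as proB, a later stage. Stage may thus differ along with genotype, and its part in the differences between Erg KO and controls was not tested. Mice were female for 4 libraries and male for replicate 2 of the Erg KO and of the Erg fl/fl control. The labels give no age, and the methods give only an age range for all mice of the study. Contact counts hold no expression, so neither the cell type nor the deletion of Erg was checked against markers.

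Libraries held between 29014581 and 68085468 read pairs. The Erg fl/fl control replicate 2 was the shallowest and stood apart from the other controls in several values below, and values without it are given where leaving it out moved a result most. Pairs between different autosomes (trans pairs) made up 32.3% and 34.6% of autosomal read pairs in the Erg KO libraries, against 24.7% and 26.8% in the CreT control and 24.3% and 21.6% in the Erg fl/fl control. This trans share was higher in both Erg KO libraries than in all 4 controls, and its part in the results was not tested.

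Mouse autosomes carry the centromere at their first end, so the last bases of a chromosome are the telomere of its only long arm. Telomeres are arrays of the repeat TTAGGG, bound by the shelterin proteins, which keep the end from being treated as a break. In many nuclei telomeres lie near each other and centromeres gather in clusters, and chromosome ends that meet can be seen in Hi-C as trans contacts. Along a chromosome, Hi-C also separates active, gene-rich chromatin (compartment A) from inactive chromatin (compartment B).

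The last assembled bases of the ends were read from the mm10 (GRCm38) genome of RefSeq to show how close to the telomere the bins come. The mm10 autosomes finish in a gap of 100000 unknown bases, or 150000 on 2 of them, and the bases before the gap hold TTAGGG within the last 300 on 18 of 19 ends, from 6 copies on chromosome 9 to 49, with a median of 37. The other strand's letters, CCCTAA, were found there on 0 ends. Of all 7986009 windows of 300 known bases on the autosomes, 5.78% held TTAGGG at least once and 5.77% held CCCTAA. The last 150 bases on the forward strand are shown for the end of chromosome 4, the only one of the 19 without the repeat in its last 300 bases; any TTAGGG would stand in capitals.
chromosome 4, chr4:156357967-156358116: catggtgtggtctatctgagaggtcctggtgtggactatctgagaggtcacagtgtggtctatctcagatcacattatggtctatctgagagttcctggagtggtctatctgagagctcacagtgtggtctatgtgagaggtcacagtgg
Chromosome 4 had 0 copies in this stretch. On the other 18 ends the assembled sequence reached the telomere repeats, though the last bin of most chromosomes was among those left out.

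The ends were richer in genes than the rest of the autosomes. The 914 bins used had a mean GC content of 43.8%, against 41.9% in the other 22730, and 1.20 starts of protein-coding genes per bin, against 0.846. A compartment score above 0, which marks compartment A, was found in 64.3% of the end bins (588) and in 47.6% of the others (10814). The ends differed widely among themselves. Those of chromosomes 4 and 11 had a mean GC content of 49.8% and 49.6%, and that of chromosome 10 had the most protein-coding starts, 166. Those of chromosomes 17 and 18 had a GC content of 37.6% each, and 3 and 9 protein-coding starts. Ends of chromosomes 3, 13, 17 and 18 had a mean score below 0 in both the Erg KO and the control libraries.

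The first question was how often the ends of different chromosomes met. Contacts were counted between the last 5 Mb of each pair of autosomes and divided by the number expected from the trans contacts of the bins involved, so that a ratio of 1 means no preference. In every library the ends met more often than expected, and relative to that expectation less so in Erg KO. The ratio was 1.28 and 1.30 in the Erg KO libraries, 1.47 and 1.44 in the CreT control and 1.49 and 1.64 in the Erg fl/fl control. Both Erg KO libraries lay below all 4 controls, averaging 1.29 ± 0.014 (SD, n = 2) for Erg KO and 1.51 ± 0.092 (SD, n = 4) for controls. The difference was -0.22 on the log2 scale (exact permutation test over the libraries, two-sided, p = 0.0667, the smallest this design allows). It was -0.18 without the Erg fl/fl control replicate 2. Between the controls the ratio was lower in the CreT control than in the Erg fl/fl control by a log2 difference of -0.10, a comparison of 2 libraries with 2 and with no test.

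The expected number grows with the trans share of a library. As a share of all autosomal read pairs, pairs between ends were 0.0904% and 0.0993% in the Erg KO libraries, against 0.0937% and 0.0980% in the CreT control and 0.0916% and 0.0966% in the Erg fl/fl control. On that scale the groups overlapped, with means of 0.0948% in Erg KO and 0.0950% in the controls (exact permutation test, two-sided, p = 1.0). As a share of trans pairs they were 0.284% in Erg KO and 0.392% in the controls. Among the controls, libraries with a larger trans share had a lower ratio, while the Erg KO library with the larger share, 34.6%, had the higher ratio of its group, 1.30. In the 4 controls the trans share was 26.8%, 24.7%, 24.3% and 21.6%, and the ratio in the same libraries was 1.44, 1.47, 1.49 and 1.64. The part of the trans share in the lower ratio of the Erg KO libraries was not tested.

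Ends also met the centromere-near parts of other chromosomes, taken as their first 13 Mb, and here the order of the groups was turned round. The ratio was 0.789 and 0.785 in the Erg KO libraries, against 0.675 and 0.678 in the CreT control and 0.668 and 0.582 in the Erg fl/fl control. All 6 libraries were below 1, with the Erg KO libraries nearest to it, by a log2 difference of 0.28 (exact permutation test, two-sided, p = 0.0667). For contacts among the first 13 Mb themselves, the ratio was 1.34 and 1.35 in Erg KO, against 1.53 and 1.52 in the CreT control and 1.56 and 1.72 in the Erg fl/fl control, a difference of -0.24. Contacts of the ends with the rest of the other chromosomes had a mean ratio of 1.004 in both Erg KO and the controls. The ratios of ends with ends, ends with starts and starts with starts thus lay closer to 1 in Erg KO than in the controls, and that of ends with the rest did not.

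**Figure D1:**
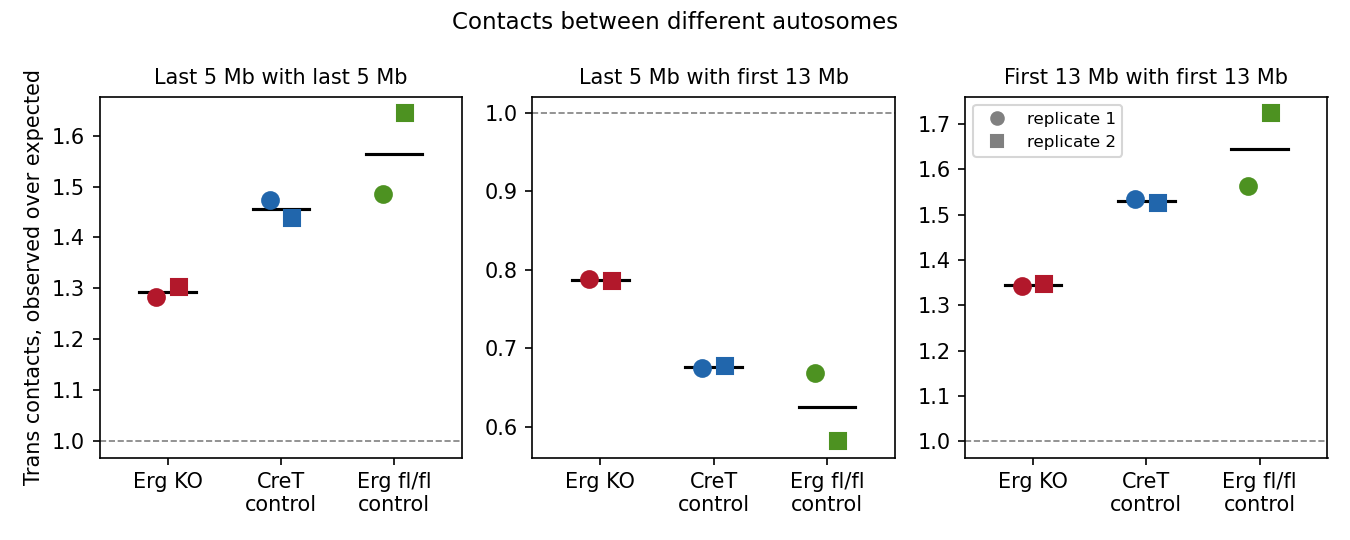
Trans contacts over those expected from bin coverage (vertical axis, no unit) in the 2 libraries of each group, for pairs of the last 5 Mb, of the last 5 Mb with the first 13 Mb, and of the first 13 Mb of different autosomes. Bars are means of 2 libraries, the dashed line is the expected value of 1, and both Erg KO libraries lie closest to that line in each panel.

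The preference was strongest at the very end. Between bins of the last 1 Mb the ratio was 2.15 and 2.23 in the Erg KO libraries, 2.77 and 2.57 in the CreT control, and 2.82 and 3.13 in the Erg fl/fl control, a log2 difference of -0.36 (exact permutation test, two-sided, p = 0.0667). Between bins at 1 to 2 Mb from the end it averaged 1.28 in Erg KO and 1.53 in the controls, and at 4 to 5 Mb 1.19 in Erg KO and 1.35 in the controls. Further in, contacts of the ends with other chromosomes were weaker, at 1.02 in Erg KO and 1.03 in the controls at 40 to 45 Mb from the end. Beyond 120 Mb from the end they were 0.842 in Erg KO and 0.736 in the controls. Only chromosomes longer than that contribute at such distances. The ratio for regions at the same distance from their ends showed a second rise far from the end, to 1.14 in Erg KO and 1.24 in the controls beyond 120 Mb.

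**Figure D2:**
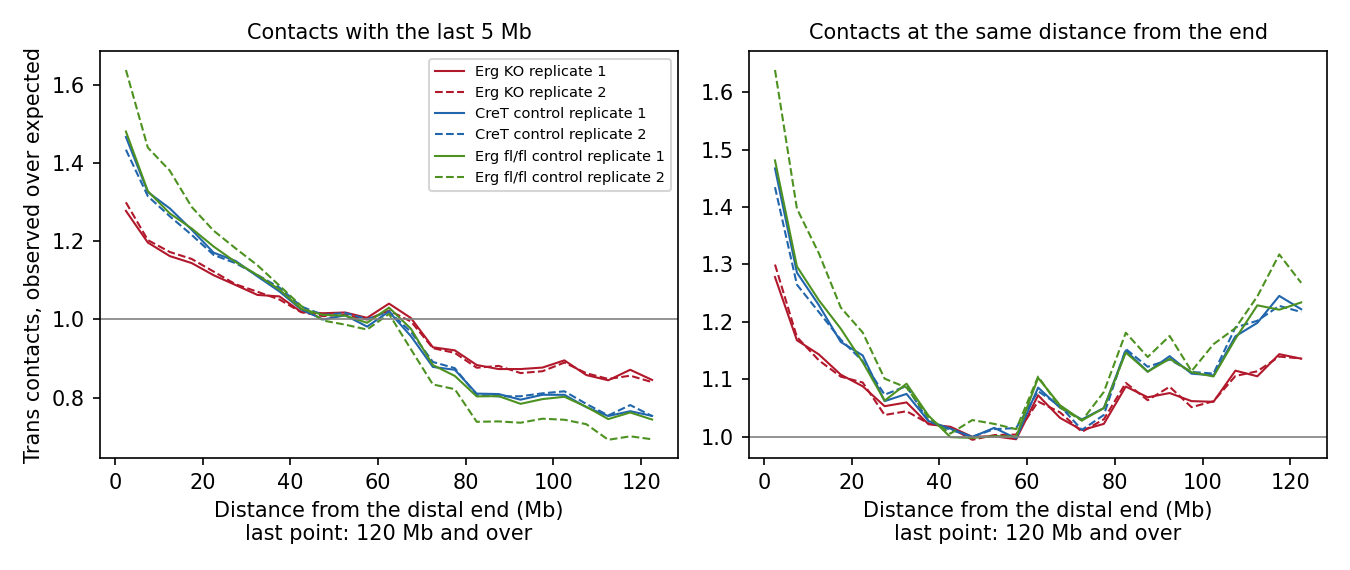
Trans contacts over expected (vertical axis) in steps of 5 Mb of distance from the distal end (horizontal axis, Mb), with the last 5 Mb of other autosomes (left) and between regions at the same distance from their ends (right), 1 line per library. The Erg KO lines start lowest, at a mean of 1.29 against 1.51 in the controls, and in the left panel their mean lies above that of the controls from 45 Mb on.

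Since ends hold more compartment A than the rest, ends were also compared by compartment. Between A bins of the ends the ratio was 1.46 ± 0.0031 in Erg KO (SD over libraries, as for all later means) and 1.70 ± 0.11 in the controls, a log2 difference of -0.22, while between A bins elsewhere it was 1.15 in Erg KO and 1.16 in the controls, a difference of -0.01. Between B bins of the ends it was 1.79 ± 0.030 in Erg KO and 2.27 ± 0.13 in the controls (-0.35), and between B bins elsewhere 1.28 in Erg KO and 1.40 in the controls (-0.13). An A bin of an end and a B bin of another met at a ratio of 0.991 in Erg KO and 1.119 in the controls, and such mixed pairs elsewhere at 0.794 in Erg KO and 0.745 in the controls. The ratio for ends was thus higher than for other bins of the same compartments in both Erg KO and controls. The difference between ends and other bins was not tested.

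Pair by pair, the ends were not alike. Over all 6 libraries 135 pairs had a ratio above 1 and 36 below it, with a median of 1.42 and between 525 and 6552 read pairs each. The highest were chromosomes 2 and 4 (3.16), 1 and 2 (2.97), 1 and 3 (2.87), 2 and 3 (2.64) and 3 and 5 (2.50), all long chromosomes. The lowest were 11 and 17 (0.395), 11 and 18 (0.421), 15 and 17 (0.514), 3 and 11 (0.529) and 15 and 18 (0.580), each a pair of a gene-rich end with a gene-poor one. The pair with the most read pairs, 6552, was 11 and 15, both rich in genes, with a ratio of 2.38.

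Each pair was tested among all 113112 pairs of 5 Mb blocks on different autosomes, with coverage as the expected value (edgeR's quasi-likelihood test, Benjamini-Hochberg adjustment over all of them, adjusted p below 0.05). Of all pairs of ends 69 fell and 0 rose in Erg KO, against 2.56% that fell and 3.56% that rose among all block pairs. The median log2 fold change was -0.22 for the ends and 0.01 for all block pairs, and 152 pairs of ends were below 0. In 91 pairs both Erg KO libraries lay below all 4 controls, which held for 11.8% of all block pairs, and in 4 both lay above all controls, against 14.8%. At an unadjusted p below 0.05, 95 pairs were lower and 2 higher. DESeq2 called 5 lower and 0 higher, of 110 pairs to which it gave an adjusted p. The edgeR count was 29 without the Erg fl/fl control replicate 2, 29 without the Erg KO replicate 2 and 31 without the Erg KO replicate 1, all lower in Erg KO.

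Other classes of block pairs moved as well. Of the 1083 pairs between the first 13 Mb of different chromosomes, 301 (27.8%) fell and 1 rose, with a median log2 fold change of -0.26. Of the pairs of second blocks (5 to 10 Mb from the end), 42 fell and 1 rose, with a median of -0.15. Of 851 block pairs of an end with a start, 253 (29.7%) rose, with a median of 0.31. Of the 7614 pairs of an end with a block elsewhere, 7.60% rose and 5.21% fell.

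Of the 5 largest falls 4 were between ends of chromosomes of 140 Mb or more. The ends of chromosomes 2 and 3 had a ratio of 1.90 and 2.29 in the Erg KO libraries, against 2.91 and 3.08 in the CreT control and 2.74 and 3.69 in the Erg fl/fl control. That pair had a fitted log2 fold change of -0.66 ± 0.08 (SE, edgeR, adjusted p = 3.0e-11), and the groups did not overlap. Chromosomes 1 and 2 had 2.30 and 2.39 in Erg KO, against 3.31 and 3.04 in the CreT control and 3.42 and 4.40 in the Erg fl/fl control (-0.63, adjusted p = 2.7e-14). Chromosomes 4 and 7 had 1.82 and 1.71 in Erg KO, against 2.47 and 2.50 in the CreT control and 2.25 and 3.11 in the Erg fl/fl control (-0.59, adjusted p = 8.4e-13). In these pairs the Erg fl/fl control replicate 2 was the highest library. Without it the fold changes were -0.59 for chromosomes 2 and 3, -0.52 for 1 and 2 and -0.37 for 4 and 7, all of which still passed. The other pairs of the 5 largest falls were 2 and 14 (-0.56) and 4 and 6 (-0.52), again without overlap of the groups.

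Other pairs moved less. The ends of chromosomes 11 and 15 met at 2.41 and 2.30 in Erg KO, against 2.40 and 2.35 in the CreT control and 2.54 and 2.34 in the Erg fl/fl control, with the groups interleaved and a log2 fold change of -0.01 ± 0.05 (adjusted p = 0.97). The ends of 11 and 17 met at 0.447 and 0.366 in Erg KO, against 0.366 and 0.369 in the CreT control and 0.421 and 0.436 in the Erg fl/fl control. Their groups overlapped too, and of the 5 lowest pairs none passed the test in edgeR or DESeq2. The ends of chromosomes 12, with the distal part of Igh, and 16, with Erg, met at 1.25 and 1.24 in Erg KO, against 1.49 and 1.49 in the CreT control and 1.44 and 1.42 in the Erg fl/fl control, without overlap but short of the threshold (-0.22, adjusted p = 0.10).

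**Figure D3:**
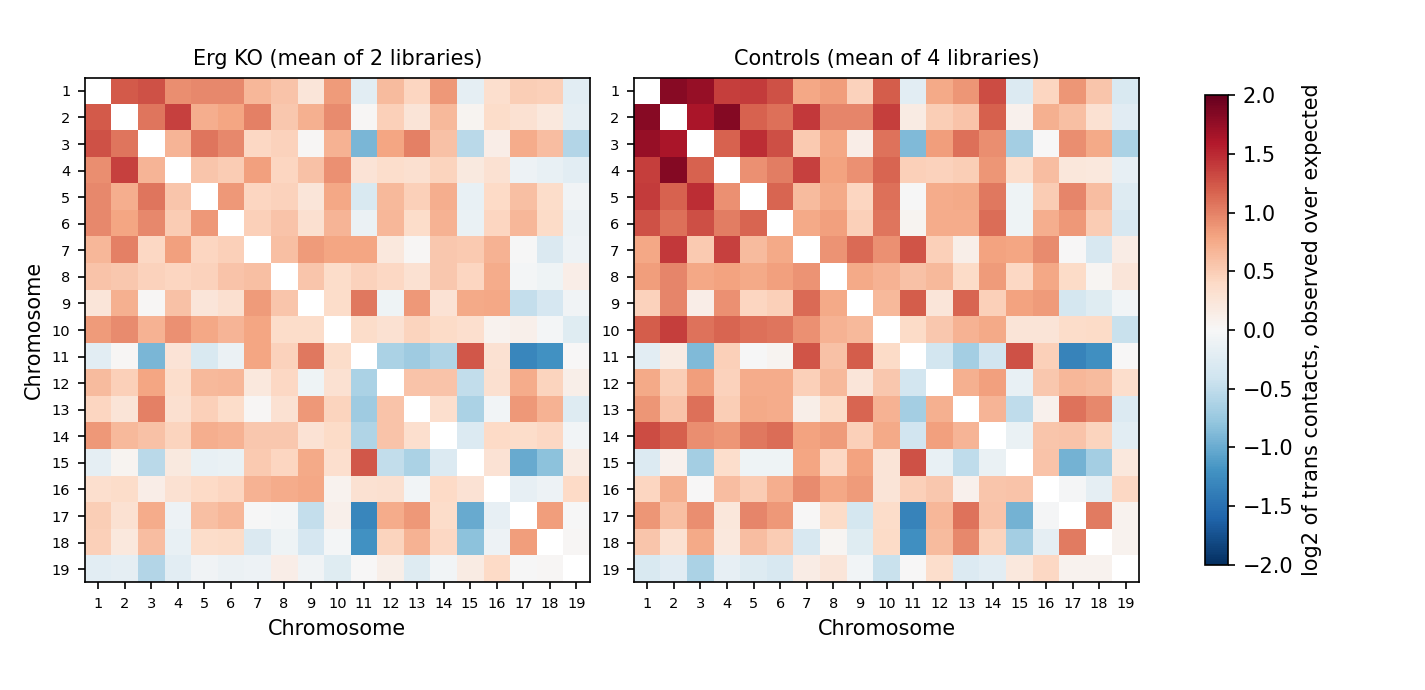
Trans contacts between the last 5 Mb of each pair of autosomes, as log2 of observed over expected (colour), as the mean of 2 Erg KO libraries (left) and of 4 control libraries (right), with chromosome numbers on both axes. Pairs of chromosomes 1 to 7 are the reddest and paler in Erg KO, at 1.80 against 2.36, and pairs of chromosomes 11 and 15 with 17 and 18 are blue in both.

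Chromosome length went with both the level and the fall. Between the 7 chromosomes of 140 Mb or more, the ratio was 1.80 ± 0.030 in Erg KO and 2.36 ± 0.17 in the controls, and 18 of their 21 pairs fell. Between the 8 of 100 to 140 Mb it was 1.31 in Erg KO and 1.48 in the controls, with 9 of 28 pairs fallen. Between the 4 shorter ones it was 1.13 in Erg KO and 1.18 in the controls, and of their 6 pairs 0 passed in edgeR or DESeq2, with 1 at an unadjusted p below 0.05. Over the 19 ends, the ratio with all other ends in the controls correlated with chromosome length (Pearson r = 0.92, Spearman rho = 0.95) and the log2 difference between Erg KO and controls did so with the opposite sign (r = -0.87, rho = -0.90). These correlations describe 19 ends that share libraries and partners. The end of chromosome 2 had the highest ratio, 1.53 in Erg KO and 1.95 in the controls, and that of chromosome 19, the shortest autosome, the lowest, 0.974 in Erg KO and 0.988 in the controls (exact permutation test, two-sided, p = 0.60). Chromosomes 16, 17 and 18 lay between, at 1.28, 1.11 and 1.05 in Erg KO against 1.45, 1.25 and 1.14 in the controls.

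The second question was how often an end met the first 13 Mb of its own chromosome, where the centromere lies. Over all 19 chromosomes these contacts were 4.92 and 4.36 times those expected between different chromosomes in the Erg KO libraries, 4.63 and 4.45 in the CreT control, and 4.47 and 3.62 in the Erg fl/fl control. Groups overlapped, and the log2 difference of 0.12 was within the spread of the libraries (exact permutation test, two-sided, p = 0.533). The expected number here also grows with the trans share of a library, which was higher in both Erg KO libraries and lowers their ratio. The part of the trans share in this comparison was not tested. The log2 difference was 0.04 without the Erg fl/fl control replicate 2. Its direction depended on what it was set against. Relative to contacts of the same ends with the first 13 Mb of other chromosomes, the value was 5.90 ± 0.49 in Erg KO and 6.59 ± 0.27 in the controls (-0.16, p = 0.133 by the same exact test). Relative to other regions at the same distance on the autosomes it was 1.14 ± 0.00045 in Erg KO and 1.17 ± 0.015 in the controls (-0.03, p = 0.133, exact test). That value used only distances present on several autosomes, which left out chromosomes 1 and 2, the longest. For other long chromosomes few regions at such distances were available.

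Individual chromosomes differed. The ratio was highest on chromosomes 14 and 16, at 8.49 and 7.78 on 14 and 8.41 and 7.65 on 16 in the Erg KO libraries. In the controls it was 9.31, 9.46, 8.58 and 6.35 on chromosome 14 and 9.22, 8.84, 8.06 and 6.39 on chromosome 16, with overlap on both. On chromosome 2 it was 4.72 and 2.65 in Erg KO, against 1.80 and 1.91 in the CreT control and 2.62 and 1.59 in the Erg fl/fl control. Replicate 1 of Erg KO was far above the other libraries there, with 1725 read pairs. Chromosome 5 had 4.83 and 3.39 in Erg KO, against 2.54 and 2.81 in the CreT control and 3.37 and 1.75 in the Erg fl/fl control, so that both Erg KO libraries were above all controls, the second of them narrowly. On chromosome 19 the ratio was 6.81 and 6.29 in Erg KO, against 7.58 and 7.04 in the CreT control and 7.89 and 8.19 in the Erg fl/fl control, with both Erg KO libraries below all controls. None of these 19 differences could pass an exact test, whose smallest p was 0.0667.

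Blocks of 5 Mb gave the same contacts at finer scale. Of the 48 pairs of an end block with a block in the first 13 Mb, 37 rose and 2 fell in Erg KO (edgeR), with a median log2 fold change of 0.52. Among all 4880 cis pairs of blocks at least 20 Mb apart, 33.0% rose and 31.1% fell, with a median of 0.02. These were not matched for distance to the 48 pairs, which join opposite ends of a chromosome. The part of distance in the 37 rises was not tested. Block counts were scaled among cis block pairs (TMM), whereas the ratio over all chromosomes was set against trans coverage. The ratio above that took distance into account had a log2 difference of -0.03, but it did not include chromosomes 1 and 2. With loess offsets, which remove a trend over abundance, 9 of the 48 rose and 3 fell, with a median of 0.04, when 41.8% of all changed. The largest rises were on chromosome 2 (1.07) and the largest fall on chromosome 19 (-0.30).

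Around the ends themselves, local contacts (200 kb to 2 Mb from the bin) moved in opposite directions on the most GC-rich and the most GC-poor ends. Of the 914 end bins 208 rose and 501 fell in Erg KO (edgeR, TMM scaling), against 33.9% that rose and 33.0% that fell among all 23644 bins. The median log2 fold change was -0.21 in the ends and 0.01 over all bins. In 494 end bins both Erg KO libraries lay below all controls and in 207 above them, against 33.4% and 34.9% of all bins. The mean local contacts of an end bin over those of all bins were 1.04 and 1.07 in Erg KO, against 1.14 and 1.14 in the CreT control and 1.13 and 1.19 in the Erg fl/fl control, so that the groups did not overlap (log2 difference -0.12, exact permutation test, two-sided, p = 0.0667). Local contacts were not corrected for the total coverage of a bin. That coverage, for end bins over all bins, was 1.035 and 1.057 in Erg KO. In the CreT control it was 1.084 and 1.095, and in the Erg fl/fl control 1.077 and 1.096. Its part in the local contacts was not tested.

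The direction followed the compartment and the base composition of the bins. Among end bins with a positive compartment score 78.1% fell and 2.21% rose, against 59.4% and 6.80% of other bins with a positive score. Among end bins with a negative score 59.8% rose and 12.9% fell, against 59.4% and 7.48% elsewhere. Over the 914 end bins, GC content and the log2 fold change correlated at r = -0.83, and over all 23644 bins also at r = -0.83, a description over bins of the same libraries. With offsets for GC content, 136 end bins rose and 180 fell, with a median of -0.02, when 32.4% of all bins changed. The excess of falls over rises at the ends thus shrank with GC offsets, and the part of GC content in library preparation was not tested.

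**Figure D4:**
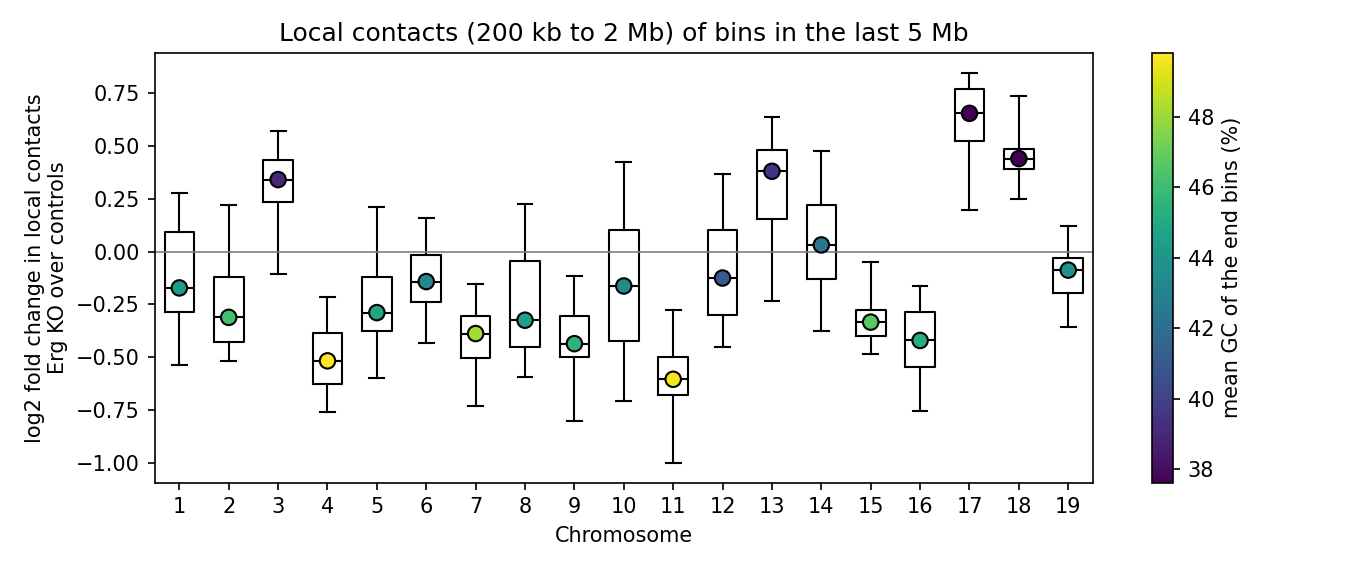
Log2 fold change in local contacts (Erg KO over controls, vertical axis) of the bins in the last 5 Mb of each autosome (horizontal axis). Boxes are quartiles, whiskers the full range, and points the medians coloured by the mean GC content of the end, from -0.60 on the GC-rich chromosome 11 to 0.65 on the GC-poor chromosome 17.

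All 49 bins used on chromosome 11 fell, with a median of -0.60, and likewise all 48 on chromosome 4 (-0.52). On chromosome 17 48 of 49 bins rose, with a median of 0.65, and on chromosome 18 all 48 (0.44). Chromosomes 3 and 13, the next lowest in GC content, had 38 and 33 bins that rose, and 0 of their 95 bins were lower at an unadjusted p below 0.05 in edgeR. Gene number and direction did not always go together. The end of chromosome 12, with 16 protein-coding starts, had 6 bins that rose and 23 that fell, that of chromosome 14, with 24, had 12 and 11, and that of chromosome 10, with the most starts, had 11 and 23. Of the 10 largest falls 7 lay on chromosome 11, 2 on chromosome 9 and 1 on chromosome 4, and the 10 largest rises all lay on chromosome 17.

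The largest fall was in a bin at chromosome 11, 118699662 to 118800084 (mm10), 3.28 Mb from the end, where no protein-coding gene starts. Its normalised local contacts were 481 and 563 in Erg KO, against 870 and 785 in the CreT control and 830 and 1395 in the Erg fl/fl control (log2 fold change -0.999 ± 0.09 SE, edgeR, adjusted p = 4.4e-08, and -0.79 without the Erg fl/fl control replicate 2). A nearby bin holds the starts of Rbfox3, which encodes a neuronal splicing factor, and Enpp7, an alkaline sphingomyelinase of the gut. It had 675 and 748 in Erg KO, against 1142 and 1085 in the CreT control and 1187 and 1594 in the Erg fl/fl control (-0.88). Timp2, an inhibitor of matrix metalloproteinases, and Cep295nl start in another, with 805 and 957 in Erg KO, against 1310 and 1311 in the CreT control and 1285 and 1799 in the Erg fl/fl control (-0.78). On chromosome 9 the named bins hold Gorasp1, a Golgi stacking protein, with Ttc21a and Csrnp1 (-0.80), and Scn10a, a sodium channel of sensory neurons (-0.76). On chromosome 4 the bin holds Slc35e2, Cdk11b, a cyclin-dependent kinase, and Gm10563 (-0.76). In all 10 the groups did not overlap, but the bins were chosen as the largest falls. Both Erg KO libraries lay below all controls in 33.4% of all bins. With GC offsets the 7 on chromosome 11 had log2 fold changes of -0.47 to -0.09, of which 6 passed, and those on chromosomes 9 and 4 passed as well.

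The largest rise, at chromosome 17, 91700585 to 91800141, was in a bin without a protein-coding start. It had 878 and 739 in Erg KO, against 466 and 527 in the CreT control and 556 and 373 in the Erg fl/fl control (0.85 ± 0.08, edgeR, adjusted p = 8.4e-08). With GC offsets the 10 bins kept a rise of 0.23 to 0.38, and all 10 passed.

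Within the ends, 14197 bin pairs were tested one by one among 431884 on all autosomes. Of these 796 rose and 1862 fell in Erg KO (edgeR, loess offsets), against 6.48% that rose and 6.26% that fell among all, with a median of -0.18. The share that fell was 22.1% below 0.5 Mb of distance, 15.1% at 0.5 to 1 Mb and 7.27% at 1 to 2 Mb, against 10.8%, 7.57% and 3.52% of other bin pairs at these distances. With GC offsets the split turned round, to 418 that rose and 192 that fell, against 1.98% and 0.866% of all. The count was 0 without the Erg KO replicate 1, where 2970 had an unadjusted p below 0.05, 139 without the Erg KO replicate 2, and 842 without the Erg fl/fl control replicate 2.

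Among bin pairs at least 200 kb apart with a mean count of 20 or more, the largest falls were again on chromosome 11. The bin of Rbfox3 and Enpp7 met that of Chmp6, a component of the ESCRT machinery, and Baiap2, 1.00 Mb away, with 5.3 and 4.4 normalised read pairs in Erg KO, against 28.6 and 14.5 in the CreT control and 43.4 and 39.0 in the Erg fl/fl control (log2 fold change -2.55 ± 0.41, edgeR, adjusted p = 1.4e-06). It met the bin of Endov, an endonuclease that acts on inosine, with 11.4 and 21.4 in Erg KO, against 55.5 and 44.4 in the CreT control and 67.1 and 103.1 in the Erg fl/fl control (-2.18). On chromosome 16 the bin of Setd4, Cbr1 and Gm5678 met a bin 1.10 Mb away with 8.4 and 13.1 in Erg KO, against 36.5 and 30.2 in the CreT control and 33.0 and 71.1 in the Erg fl/fl control (-2.23). All 5 named falls passed with GC offsets too, with fold changes of -1.67 to -2.01 on the log2 scale. The 5 largest rises all lay on chromosome 17 (1.35 to 1.46), and the first of them, from the bin of Adcyap1, which encodes the neuropeptide PACAP, had 37.3 and 33.1 in Erg KO, against 15.9 and 13.7 in the CreT control and 16.5 and 7.7 in the Erg fl/fl control. With GC offsets 2 of these 5 rises passed. Of the 10 named bin pairs, 9 no longer passed in DESeq2, 10 without the Erg KO replicate 1 and 5 without the Erg KO replicate 2.

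Compartment scores of the ends changed little. The mean score of the 914 end bins was 0.336 and 0.344 in Erg KO, against 0.363 and 0.352 in the CreT control and 0.366 and 0.364 in the Erg fl/fl control, in units of the SD of a chromosome. Both Erg KO libraries were below all controls, with a difference of -0.02 between the means (exact permutation test, two-sided, p = 0.0667). In limma 10 end bins rose and 26 fell, against 1.61% that rose and 2.46% that fell among all 23644 bins, so that the share of end bins changed was near the 4.07% of all bins. Both Erg KO libraries lay below all controls in 113 end bins and above them in 96, against 12.8% and 20.4% of all bins. The limma count was 0 against each control alone (0.0% of all bins), where 230 and 265 end bins had an unadjusted p below 0.05 (0 and 52 passed with limma's trend). It was also 0 with sex left out of the model, and between 0 and 361 with 1 library left out.

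Most of the falls lay at the ends of chromosomes 12 (10 bins) and 5 (9), and most of the rises at that of chromosome 13 (6). Scores came from contacts smoothed over 5 bins, so neighbouring bins that passed are not separate observations. On chromosome 12 the mean score of the end was 0.12 ± 0.13 in Erg KO and 0.42 ± 0.086 in the controls. The largest change that passed was at 117400247 to 117500222, 2.63 Mb from the end and without a protein-coding start. Its score was 0.02 and 0.53 in Erg KO, against 0.77 and 0.75 in the CreT control and 0.73 and 0.95 in the Erg fl/fl control (-0.62 ± 0.07, limma, adjusted p = 0.041). The Erg KO libraries were lowest but far apart. The bin of Cdca7l had 0.29 and 0.60 in Erg KO, against 0.70 and 0.72 in the CreT control and 0.65 and 0.86 in the Erg fl/fl control (-0.35). On chromosome 5 the bin of Fry, a gene for a protein of cell shape and division, had -0.67 and -0.42 in Erg KO, against -0.23 and -0.32 in the CreT control and -0.42 and -0.07 in the Erg fl/fl control, where the groups overlapped (-0.36).

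**Figure D5:**
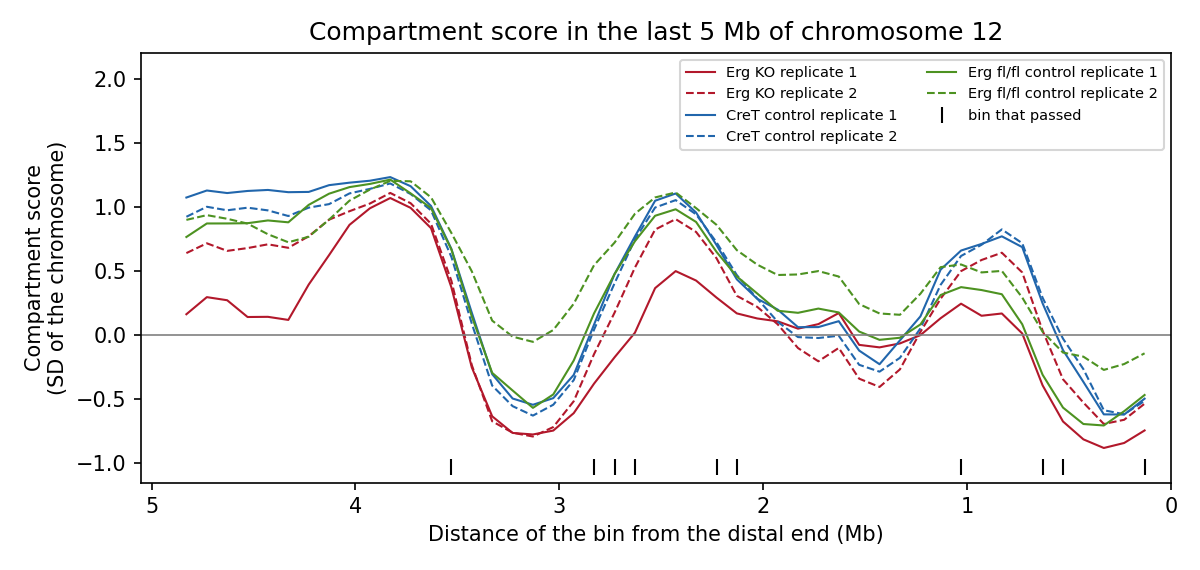
Compartment score (vertical axis, SD of the chromosome) of the bins in the last 5 Mb of chromosome 12 by distance from the end (horizontal axis, Mb), 1 line per library, with ticks under the 10 bins that passed in limma. The Erg KO replicate 1 is the lowest library in 39 of 48 bins, and the bins with distal VH segments, beyond 4 Mb, have no tick.

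Among the rises, Plxna2, a semaphorin receptor on chromosome 1, lay in a bin with 0.12 and -0.04 in Erg KO, against -0.23 and -0.16 in the CreT control and -0.15 and -0.25 in the Erg fl/fl control (0.27). Of all end bins 9 passed with a positive mean score in the controls and a negative one in Erg KO, and 1 the other way.

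The distal part of the Igh locus reaches into the end of chromosome 12. Igh joins VH, D and JH segments in B-cell progenitors, and its distal VH segments lie far from the D and JH segments. Of 185 VH segments annotated on chromosome 12, 45 start within the last 5 Mb, in 9 bins from 115199883 to 116100050. Local contacts fell in 9 of the 9 (edgeR; 33.0% of all bins and 54.8% of end bins fell), with log2 fold changes of -0.45 to -0.23 and a median of -0.30. With GC offsets 9 of 9 fell as well, with a median of -0.56, and without the Erg fl/fl control replicate 2 the count was 8. In 2 of the 9 bins the groups overlapped. Neighbouring bins share part of their contacts, so the 9 are not separate observations. The first of these bins had 637 and 836 in Erg KO, against 966 and 857 in the CreT control and 955 and 1049 in the Erg fl/fl control. Its compartment score was 0.16 and 0.64 in Erg KO, against 1.07 and 0.92 in the CreT control and 0.77 and 0.90 in the Erg fl/fl control. No score of the 9 bins passed in limma (adjusted p between 0.054 and 0.17), though the fitted changes were all below 0, from -0.62 to -0.21. Without the Erg fl/fl control replicate 2, which leaves 1 library in that group, the fitted changes were -0.83 to -0.29. None of the 9 scores passed with sex left out of the model.

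Erg itself and its neighbour Ets2, another ETS factor, lie at the end of chromosome 16, 2.61 and 2.41 Mb from it. Local contacts of the bin in which Erg starts were 959 and 1131 in Erg KO, against 1317 and 1298 in the CreT control and 1199 and 1465 in the Erg fl/fl control (-0.40 ± 0.06, edgeR, adjusted p = 4.3e-06), and with GC offsets -0.10 (adjusted p = 0.16). The bin of Ets2 had 807 and 906 in Erg KO, against 1091 and 1106 in the CreT control and 1076 and 1198 in the Erg fl/fl control (-0.42), and with GC offsets -0.12 (adjusted p = 0.11).

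Few genes of the lists looked up lie at the ends. Of 26 B-lineage transcription factors 0 start there, and of 20 B-cell surface and signalling genes 2 do, Cr2, the complement receptor of mature B cells, and Flt3, the receptor of the cytokine FL. The bin of Cr2, 0.27 Mb from the end of chromosome 1, had 418 and 408 local contacts in Erg KO, against 383 and 390 in the CreT control and 380 and 315 in the Erg fl/fl control (0.21, adjusted p = 0.064), and with GC offsets -0.24 (adjusted p = 0.016). Nearly all of Flt3 lies outside the bin in which the gene starts. That starting bin had 832 and 895 in Erg KO, against 929 and 890 in the CreT control and 872 and 842 in the Erg fl/fl control (-0.04, adjusted p = 0.59). Of 15 genes of telomere proteins only Rtel1, a helicase that unwinds telomere loops, lies in an end, that of chromosome 2. Its bin had 866 and 911 in Erg KO, against 1114 and 1091 in the CreT control and 1038 and 1135 in the Erg fl/fl control (-0.33, adjusted p = 0.00010), and with GC offsets 0.03 (adjusted p = 0.67). Of the 11 stromal, 8 myeloid and 6 T-lineage genes looked up, 0 start in an end.

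The CreT control was also set against the Erg fl/fl control. In edgeR 0 pairs of ends, 0 of 48 cis block pairs, 0 of 914 bins in local contacts and 0 of 14197 bin pairs passed. At an unadjusted p below 0.05 there were 27, 11, 93 and 946 of them, and DESeq2 called 0 in each. Over all features the share called was 0.0194% of trans block pairs, 0.0% of cis block pairs and of bins, and 0.000232% of bin pairs. For compartment scores limma called 0 of 914 bins, with or without a trend, and 193 had an unadjusted p below 0.05. Between 2 libraries and 2, these counts do not show that the controls were alike.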

How the data were processed

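The 6 matrices of raw counts deposited by the authors, 1 per library, give the read pairs for every pair of bins, together with a single bin list. The other deposited values used, the bin starts and ends, are positions in mm10. Per the authors' methods, reads were aligned with diffHic (through bowtie2), duplicates were marked, unligated fragments were removed, and read pairs were assigned to 100 kb bins. Duplicates or a base composition bias that remained would change counts. The matrices hold fewer read pairs than the valid pairs the methods state, for a reason not given in the sources used here. The methods leave out telomeric bins, which were kept here by coverage alone (0.3 to 3 times the autosomal median). The methods call the libraries of a group biological duplicates, and p-values measure the spread between these libraries.

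Expected trans contacts came from the trans coverage of bins. Blocks of 5 Mb were laid from the distal end. Features with a summed count of at least 10 (bin pairs at least 46, set by an abundance 5 times that between chromosomes) were tested in R 4.3.3 with edgeR 4.0.16, group and sex in the model, as the methods do. Trans blocks had coverage offsets, cis blocks and local contacts TMM, and bin pairs loess offsets. Compartment scores were the leading component of the correlation matrix per chromosome, centred and scaled to SD 1, tested with limma 3.58.1. That matrix came from contacts over those expected at their distance, smoothed over 5 bins. DESeq2 1.42.0 was an alternative, with adjusted p-values it left out kept out. Adjustment was by Benjamini-Hochberg across every feature tested, at 0.05. On simulated data with 200 features changed 2-fold, edgeR recovered 100% of trans block pairs, cis block pairs and bins, and 52.5% of bin pairs. The changed features were drawn from those at or above the median count. Of the calls, 3.85%, 7.41%, 3.85% and 4.55% were false, in the same order. Smaller changes, lower counts and larger shares of changed features were not simulated.

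Named pairs of ends are the 5 highest, 5 lowest and 5 largest changes in each direction. Named bins are the 10 largest changes in each direction that passed and had 1 sign against both controls, named bin pairs likewise the 5 largest, and with them Erg, Ets2, the VH segments and any list gene in an end. A named bin and the sequences of some ends are not reported here. The pair of chromosomes 11 and 15 and that of 12 and 16 were chosen after their values were seen. Genes were placed by their start in GENCODE M21. The members, lists and tests were chosen with earlier results of these data known. Python 3.11.15, numpy 2.4.6, pandas 2.3.3 and scipy 1.17.1 were used.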

Additional observations from a re-analysis of the deposited data

Results flagged for a closer look

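Of 40 values examined over the 4 control libraries, 6 had a library far from the other 3, by the gap to its nearest neighbour divided by the range of the group (Dixon's test). Chance flags about 1 in 20 such groups, and the values share libraries. In all 6 the library was the Erg fl/fl control replicate 2, the shallowest. The trans contacts of the end of chromosome 2 with all other ends had a gap of 0.957 of the range, with a ratio of 2.21 in that library and between 1.86 and 1.87 in the other controls. The ends of chromosomes 5 (0.872), 10 (0.870), 1 (0.852) and 4 (0.840) had their highest ratio in it too, at 1.77, 1.80, 1.99 and 2.02. Contacts of the end of chromosome 7 with its own first 13 Mb (0.881) had their lowest ratio there, 1.61, against 2.88, 2.97 and 2.81 in the other controls.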

How the results depend on the processing

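The trans ratio between ends kept its direction under every alternative run, with log2 differences between -0.35 and -0.19 over other bins, end lengths and expected values, and between -0.25 and -0.18 with 1 library left out. All of these tie the expected value to the trans pairs of the library, so none removes the difference in trans share. As a share of all autosomal read pairs, the log2 difference was -0.0032. Counts moved more. For pairs of ends (69), TMM without coverage offsets gave 133, DESeq2 5, the CreT control alone 40, and leaving out 1 library 29 to 75. For cis block pairs (39), loess offsets gave 12 and leaving out 1 library 30 to 44. For local contacts (709), GC offsets, chosen after seeing the data, gave 316 and leaving out 1 library 630 to 761. For compartment scores (36), limma's trend gave 91, scores not centred 87 (also added later), no sex term 0, each control alone 0 and leaving out 1 library 0 to 361. For bin pairs, DESeq2 gave an adjusted p to only 4193 of the 14197 within ends. Of bin pairs (2658), DESeq2 called 164, no sex term 1322, GC offsets 610, the CreT control alone 1545 and leaving out 1 library 0 to 2991. The cause was not tested.

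Contacts of ends with their own first 13 Mb reversed from 0.12 to -0.16 over other chromosomes' starts and to -0.034 over the same distance, and stayed between 0.03 and 0.20 with 1 library left out. The bin of Rtel1 turned to 0.033 with GC offsets.

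With the replicate number as a block in place of sex, the counts were 68 pairs of ends, 33 cis block pairs, 582 bins in local contacts, 0 in compartment score (146 at an unadjusted p below 0.05) and 1362 bin pairs. The labels do not say whether replicates of the same number share a culture or a day. Their deviations correlated at 0.53 between Erg KO and the Erg fl/fl control, which share sexes, but at -0.18 and -0.40 between the CreT control and these. With 2 libraries a group, the exact tests could not pass 0.05, and trans counts of 525 to 6552 read pairs per pair of ends limit the precision of single pairs.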
